A study of Mus musculus with 24 samples.

Results

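The medial prefrontal cortex (mPFC) of mice given duloxetine together with *Ruminococcus flavefaciens* was compared with that of mice given duloxetine alone. The mice were taken by their treatment labels, 6 in each of these groups, which makes 12 of the 24 mice of the study, and all 15456 genes of the deposited table were considered. The study asked how a gut bacterium bears on the response to antidepressants, and this comparison asks what the bacterium added once the drug was present. Poly(A) RNA of the tissue was sequenced, and the table holds 1 column of normalized counts for each mouse.

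All mice were of the strain BALB/C and were labelled postnatal week 11, and the methods describe male BALB/c OlaHsd animals kept in groups. Duloxetine was injected intraperitoneally every day in both of the groups compared, so the drug is common to them and no effect of it can be read from their difference. *R. flavefaciens* was given by gavage 2 times a week, per the labels, after daily gavages at the start per the methods. Mice without the bacterium were gavaged with phosphate-buffered saline. The other groups, 6 mice with no treatment and 6 with *R. flavefaciens* alone, entered the same fit and are cited below as the same step taken without the drug. The labels name every library as a separate mouse but do not say which mice shared a cage. The groups share no first number of the mouse labels, so whatever that number stands for coincides with treatment. Markers of cortical neurons were abundant. *Camk2a*, a kinase of excitatory neurons, lay between 49264 and 63156 normalized counts in the 12 mice, and *Tbr1*, a transcription factor of deep-layer projection neurons, between 2351 and 3079.

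Duloxetine blocks the reuptake of serotonin and norepinephrine, so that both transmitters stay longer in the synapse, and the prefrontal cortex receives dense input from both systems. *R. flavefaciens* is an anaerobic gut bacterium that breaks down cellulose. Gut bacteria are thought to act on the brain through metabolites, hormones, immune signals and the vagus nerve.

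Sequencing depth was similar. Whole reads recovered from the normalized values numbered 13965066 to 14938209 per mouse with duloxetine and 14128350 to 15607343 with both treatments, a difference with a two-sided exact permutation p of 0.329. No pair of mice within a group gave the same counts within sampling noise, since the chi-square per degree of freedom was 2.87 to 21.3 over the 30 pairs. Of the 15456 genes, 14974 had a mean of at least 10 normalized counts over the 24 mice and were tested with limma, which fitted log2(normalized count + 1) in all 4 groups at once. Fold changes below are on that scale and are positive where the mice with both treatments were higher.

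Adding *R. flavefaciens* to duloxetine gave no differentially expressed gene (DEG) at an adjusted p-value of 0.05. The gene closest to the threshold was *Dpysl2*, which was lower with both treatments, and the gene with the largest positive log2 fold change was *Olfr729*. limma called 0% of the 14974 genes at 0.05, 0 at 0.1 as well, and gave 883 genes, 5.9%, an unadjusted p-value under 0.05. Of these, 452 were higher (3.02%) and 431 lower (2.88%). On the recovered reads of all 4 groups DESeq2 called 1 gene, *Dpysl2* (0.00668%), with 877 unadjusted p-values under 0.05 (5.86%), and edgeR called 0, with 910 (6.08%). Fitted to the 12 mice alone, DESeq2 called *Dpysl2* again (0.00663%), with 928 unadjusted p-values under 0.05 (6.15%), and edgeR called 0, with 1027 (6.8%). A positive log2 fold change of any size was found in 48.8% of all genes. The groups of 6 mice did not overlap in 38 genes (0.254% of those tested), 19 higher and 19 lower.

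The spread between mice set how small a difference could be seen. The median standard error of the log2 fold change was 0.087, and the 95% interval of 85.9% of the genes lay within a factor of 1.5 in either direction. The median size of the log2 fold change was 0.07, and 4 genes had one beyond 1. Of 11974 genes that averaged 50 or more in the 12 mice, 16 lay beyond 0.5. The 4 genes beyond 1 were *Olfr729* and, named after their values were seen, *Acta2* (-1.03), an actin of smooth muscle, *Cytl1* (-1.06), a secreted protein, and *Tcn2* (-1.28), a carrier of vitamin B12, whose groups overlapped. *Acta2* was at 107 to 496 normalized counts with duloxetine and 83.2 to 374 with both treatments, so its spread within a group was wide, and limma gave these 3 genes adjusted p-values of 0.816 to 0.833.

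**Figure D1:**
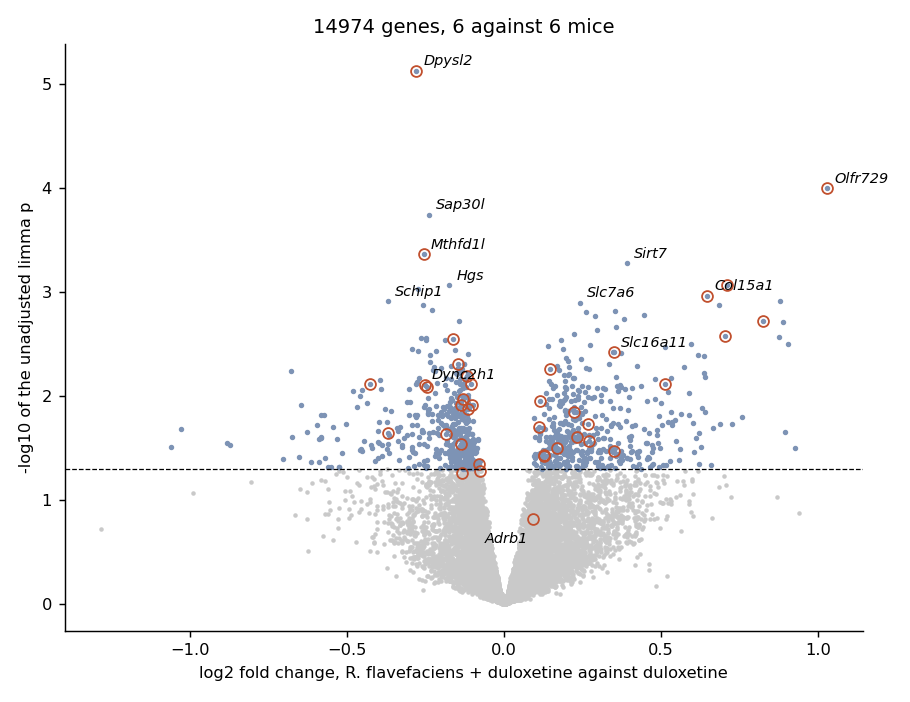
Log2 fold change (x axis, mice with both treatments against mice with duloxetine) and −log10 of the unadjusted limma p-value (y axis) of 14974 genes. The dashed line marks an unadjusted p-value of 0.05, above which lie 883 genes in blue, and rings mark the 38 genes whose groups of mice did not overlap. *Dpysl2* stands highest and *Olfr729* farthest to the right, and no gene passed the adjusted threshold.

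*Dpysl2* (ENSMUSG00000022048.8, GRCm38 chr14:66802864-66868688, minus strand) encodes CRMP2, a protein that binds tubulin and takes part in axon growth and in the response of growth cones to semaphorins. Mice with duloxetine had 4416 to 5201 normalized counts (median 5053) and mice with both treatments 3803 to 4315 (median 4088). Every mouse with both treatments was thus below every mouse with duloxetine, and the gap between the groups lay between mouse 12_4 and mouse 5_3. The log2 fold change was -0.28 (SE 0.051) with an adjusted p-value of 0.111 in limma. DESeq2 on the recovered reads gave adjusted p-values of 0.000549 with 4 groups and 0.000121 with the 12 mice alone. Over 38 alternative settings the log2 fold change stayed between -0.31 and -0.24, and the adjusted p-value ran from 0.000121 to 0.722. It was under 0.05 in 5, both DESeq2 fits and the limma fits without mouse 5_3, 7_2 or 9_3. Mice 7_2 and 9_3 were not among the 12 compared and entered the fit through the shared spread. The adjusted p-value in limma was 0.722 with quantile normalization, 0.562 without mouse 10_2 and 0.532 without mouse 5_1. Mean levels in the mice without the drug were 4802 in controls and 4373 with *R. flavefaciens*, a log2 fold change of -0.14.

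The other members of the CRMP family lay closer to 0. *Dpysl3* had a log2 fold change of -0.12 and *Crmp1* of -0.05, while *Dpysl4* and *Dpysl5* were at 0.02 and 0.01. The median of the 5 genes was -0.05 (-0.016 without mouse 12_2), against -0.0031 for all genes tested. The semaphorins, plexins and neuropilins are families of ligands and receptors, some of them upstream of CRMP2. Among 31 such genes, 4 were lower at an unadjusted p-value under 0.05 and 0 were higher, beside 2.88% and 3.02% of all genes. These were *Sema3a*, *Sema3c*, *Sema3e* and the receptor *Nrp1*, with log2 fold changes of -0.29, -0.17, -0.23 and -0.26, and limma gave each an adjusted p-value of 0.816. Of 22 tubulins and microtubule-associated proteins, *Tubb4a* (-0.10) and *Tubb5* (-0.14) were lower at that level.

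*Olfr729* (ENSMUSG00000049011.2, chr14:50144731-50152910, minus strand) belongs to the olfactory receptor family, whose members resemble each other closely enough that reads may be shared between copies. Its level was 90.6 to 158 normalized counts (median 125) with duloxetine and 161 to 468 (median 243) with both treatments. The groups did not overlap, though the lowest mouse with both treatments, 11_3, lay just above the highest mouse with duloxetine, and mouse 12_2 was far above the rest of its group. The log2 fold change was 1.03 (SE 0.225) with an adjusted p-value of 0.747 in limma. Without mouse 9_3, a mouse given *R. flavefaciens* alone that enters the fit through the shared spread, the adjusted p-value was 0.041. Without mouse 12_2 it was 0.990 and the log2 fold change 0.84, and over all 38 alternatives the adjusted p-value ran from 0.041 to 0.990. The same gene differed by 1.33 between *R. flavefaciens* and control, 229 against 84.2 normalized counts, in mice that share no animal with this comparison.

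**Figure D2:**
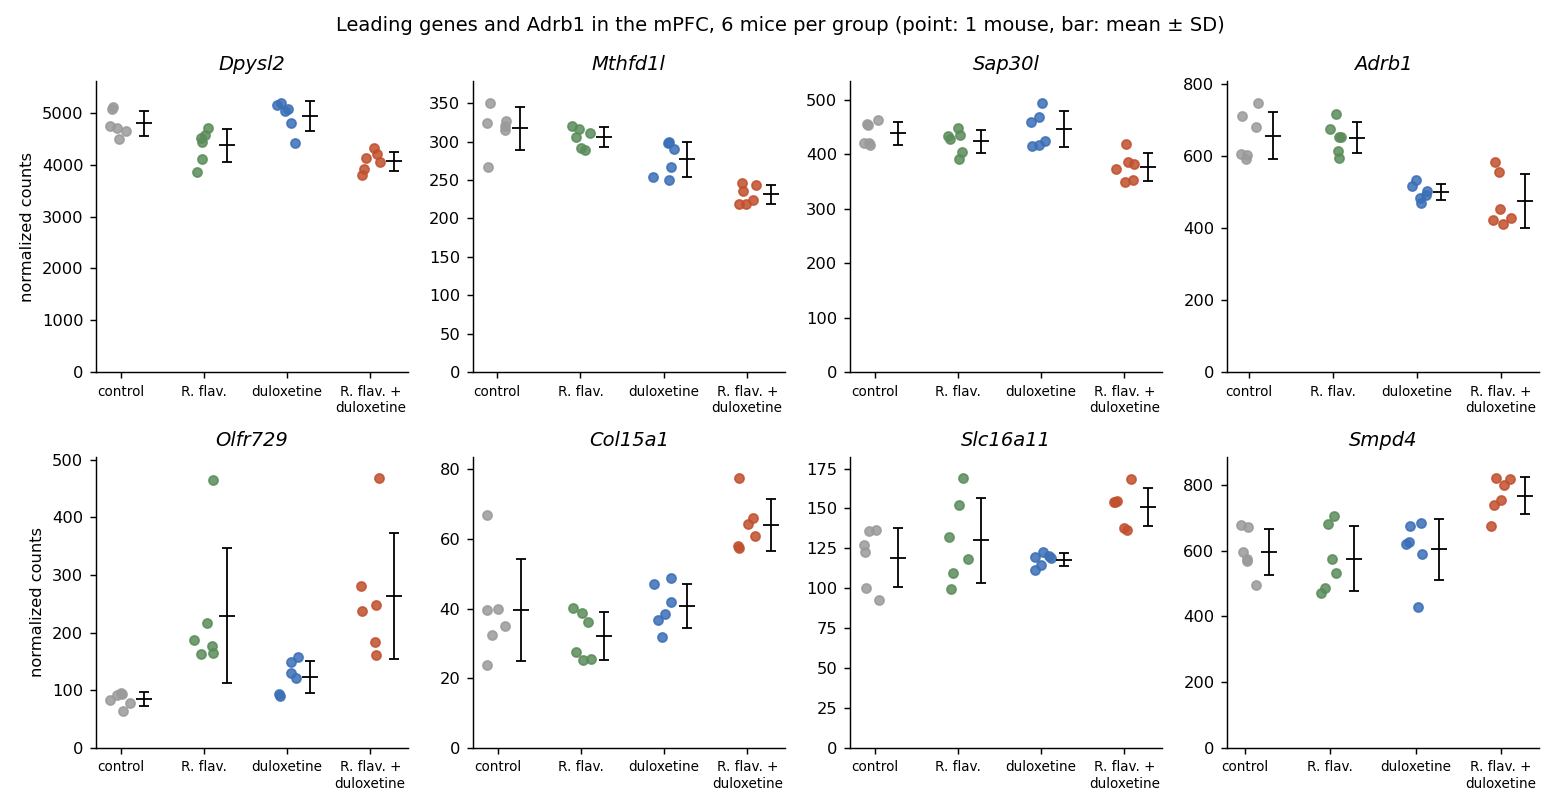
Normalized counts (y axis, from 0) of 8 genes in the 4 groups of 6 mice, with 1 point per mouse and bars for the mean ± SD. *Dpysl2*, *Mthfd1l*, *Olfr729*, *Col15a1* and *Slc16a11* show no overlap between duloxetine and both treatments, whereas *Adrb1* overlaps.

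The genes with the smallest p-values are given by their roles, a grouping made after they were ranked, and none passed the adjusted threshold. *Mthfd1l* (chr10:3973118-4167081, plus strand) encodes the mitochondrial enzyme that releases formate from the folate cycle. It ranged from 250.5 to 299.5 (median 279) with duloxetine and from 218 to 245 (median 230.2) with both treatments. The groups did not overlap, and the log2 fold change was -0.26 (SE 0.064), with an adjusted p-value of 0.816 in limma. *Slc7a6*, an exchanger of cationic and neutral amino acids, ranged from 226 to 295.4 with duloxetine and from 295.2 to 325 with both treatments, and the log2 fold change was 0.24. Only the highest mouse with duloxetine reached the lowest mouse with both treatments. *Sat1*, which acetylates spermidine and spermine for their breakdown, differed by 0.30, *Smpd4*, a neutral sphingomyelinase, by 0.36, *Pepd*, the dipeptidase that releases proline, by -0.25, and *Slc16a11*, a member of the monocarboxylate transporter family, by 0.35. Of these, the groups did not overlap for *Slc16a11*, at 111 to 122 with duloxetine and 137 to 168 with both treatments.

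*Sap30l*, a partner of the Sin3 histone deacetylase complex, ranged from 415 to 495 (median 442) with duloxetine and from 349.5 to 419 (median 378) with both treatments. All mice but 12_2 with both treatments were below the lowest mouse with duloxetine, and the log2 fold change was -0.24 (SE 0.056). *Sirt7*, a nuclear deacylase, was at 250.3 to 367 (median 299.7) with duloxetine and 350.3 to 452 (median 394) with both treatments, and the log2 fold change was 0.39 (SE 0.099). Here mouse 6_2 alone of the duloxetine group reached into the other group. *Sirt7* overlaps *Mafg* and a microRNA gene on its own strand, so reads of these genes may not be separable. *Ddb1*, the adaptor of cullin 4 ubiquitin ligases, differed by -0.14, *Fubp3*, a single-strand nucleic acid binding protein, by 0.29, and *Ncapd3*, a subunit of condensin II, by 0.22. limma gave all 5 genes an adjusted p-value of 0.816.

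*Col15a1*, a collagen of the basement membrane of vessels, was at 31.8 to 48.7 (median 40.2) with duloxetine and 57.3 to 77.5 (median 62.7) with both treatments. The groups did not overlap, and the log2 fold change was 0.65 (SE 0.176). Without the drug the same gene differed by -0.25 between *R. flavefaciens* and control. The interaction had an unadjusted p-value of 0.0013 and an adjusted one of 0.639 in limma. *Col15a1* was picked for its difference with the drug, which is part of the interaction. *Bmp1*, the protease that trims procollagens, was also without overlap, at 346 to 440.2 and 447 to 562, with a log2 fold change of 0.27. *Hgs*, which sorts ubiquitinated receptors on endosomes, differed by -0.18, *Adcy8*, a calcium-stimulated adenylyl cyclase, by -0.27, *Plcl2*, an inactive relative of phospholipase C, by -0.16, and *Pkib*, an inhibitor of protein kinase A, by -0.25. The groups did not overlap for *Plcl2* and *Pkib*. *Dync2h1*, the heavy chain of the dynein that runs in cilia, was at 805 to 887 with duloxetine and 586 to 781 with both treatments, a difference of -0.25 on the log2 scale without overlap. *Rnf150*, a RING finger protein, was lower without overlap by -0.19.

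The other genes ranked by p-value were *Pigm* (0.26), which adds the first mannose of the glycosylphosphatidylinositol anchor, *Limch1* (0.18), a regulator of actomyosin, the noncoding RNA *Gm14204* (0.35), the mitochondrial glutamate tRNA *mt-Te* (0.38), *Dcbld1* (-0.27), a transmembrane protein, and *Schip1* (-0.37), which binds the neurofibromatosis type 2 protein. The values in brackets are log2 fold changes, and limma gave each an adjusted p-value of 0.816. The entry of *mt-Te* is 69 bases long and poly(A) RNA was sequenced. Whether its reads came from the mature tRNA was not tested. *Schip1* overlaps *Iqschfp* and *Hgs* a further entry of its own name on the same strand, and *Ddb1* overlaps *Tkfc* on the opposite strand. The sources used here do not say whether reads were counted by strand. The noncoding RNA *1110038B12Rik*, host of a small nucleolar RNA, was higher by 0.27 with no overlap between the groups.

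The monoamine receptors, on which the transmitters spared by duloxetine act, were compared next. *Adrb1*, the beta-1 adrenergic receptor, was at 470.4 to 533 (median 497) with duloxetine and 410.5 to 583 (median 441) with both treatments. The groups overlapped widely, and the log2 fold change was -0.08 (SE 0.078) with an adjusted p-value of 0.862 in limma. Levels in both groups were below the means of the control mice, 656, and of the mice with *R. flavefaciens* alone, 650.4, which received no drug. None of the 8 adrenergic receptors had an unadjusted p-value under 0.05, and their median log2 fold change was -0.06.

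Of the 11 serotonin receptors tested, 4 were lower at an unadjusted p-value under 0.05 and 0 were higher, beside 2.88% of all genes lower at that level. *Htr1b*, an inhibitory receptor found on axon terminals, was at 255 to 368 (median 298) with duloxetine and 206 to 292 (median 252) with both treatments. The ranges overlapped, and the log2 fold change was -0.30 (SE 0.11). The others were *Htr3a*, the ion channel receptor of a class of interneurons, at -0.28, *Htr2c*, coupled to phospholipase C, at -0.28, and *Htr5a* at -0.16, each with an adjusted p-value of 0.816 in limma. *Htr2a*, the most abundant member, ranged from 749.8 to 1076 and from 615 to 1231 and did not separate the groups. The median log2 fold change of the 11 genes was -0.12, and it was -0.15 between *R. flavefaciens* and control.

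Lists of genes of synapses and of the neuronal surface had small negative medians, and that of AMPA receptors turned positive without mouse 11_3. Of 85 cadherins and protocadherins, which hold cells and synapses together, 7 were lower at an unadjusted p-value under 0.05 and 0 were higher, beside 2.88% and 3.02% of all genes. *Pcdh19*, a protocadherin of the X chromosome, was at 1286 to 1461 (median 1387) with duloxetine and 1012 to 1470.3 (median 1122) with both treatments. The log2 fold change was -0.24 (SE 0.077), although mouse 12_3 of the group with both treatments exceeded every mouse with duloxetine. The others were *Pcdh17* (-0.25), *Pcdha11* (-0.50), *Pcdhb4* (-0.32), *Pcdhb5* (-0.28), *Pcdhb16* (-0.21) and *Pcdhgb6* (-0.31). The clustered genes among these share exons or resemble each other closely, so their counts may not be separable. The median of the 85 genes was -0.07.

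Of 13 NMDA, kainate and delta glutamate receptor genes, 3 were lower at an unadjusted p-value under 0.05, beside 2.88% of all genes, and 0 were higher. *Grin2b*, an NMDA receptor subunit, was at 10920.5 to 13817 with duloxetine and 9033 to 11965 with both treatments, with a log2 fold change of -0.26 (SE 0.107). Mice 12_3 and 12_4 lay within the range of the duloxetine group and the other 4 mice below it. *Grin1*, the obligatory NMDA subunit, differed by -0.11 and *Grid1* by -0.12, and the list's median was -0.07, or -0.11 without mouse 6_3. Among 17 AMPA receptor genes *Shisa9*, an auxiliary subunit, was at -0.14, and 0 of 13 GABA-A receptor subunits and 0 of 7 metabotropic glutamate receptors had an unadjusted p-value under 0.05. The 31 sodium, calcium and HCN channels also had 0 and a median of -0.06 (-0.037 without mouse 12_2). Among 70 potassium channel subunits *Kcnj2* (0.25), *Kcnj8* (0.34) and *Kcnt1* (0.16) were higher and *Kcnf1* (-0.20) and *Kcna6* (-0.10) lower at that level.

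Among 27 postsynaptic scaffolds and adhesion genes *Lrrtm3* (-0.20), *Nrxn3* (-0.11) and *Homer1* (-0.41) were lower at an unadjusted p-value under 0.05 and the neuroligin *Nlgn3* (0.10) was higher, beside 2.88% and 3.02% of all genes. *Homer1*, a scaffold of metabotropic glutamate receptors that is also induced by activity, ranged from 5459 to 9967 with duloxetine and from 3715 to 8765 with both treatments. Mice 10_2 and 11_3 were the lowest of the 12. It was the only one of 20 immediate early genes at that level, and their median was -0.07. *Bdnf*, a growth factor also induced by activity, ranged from 650.3 to 1029 and from 442 to 849, a log2 fold change of -0.26 with an adjusted p-value of 0.818 in limma.

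**Figure D3:**
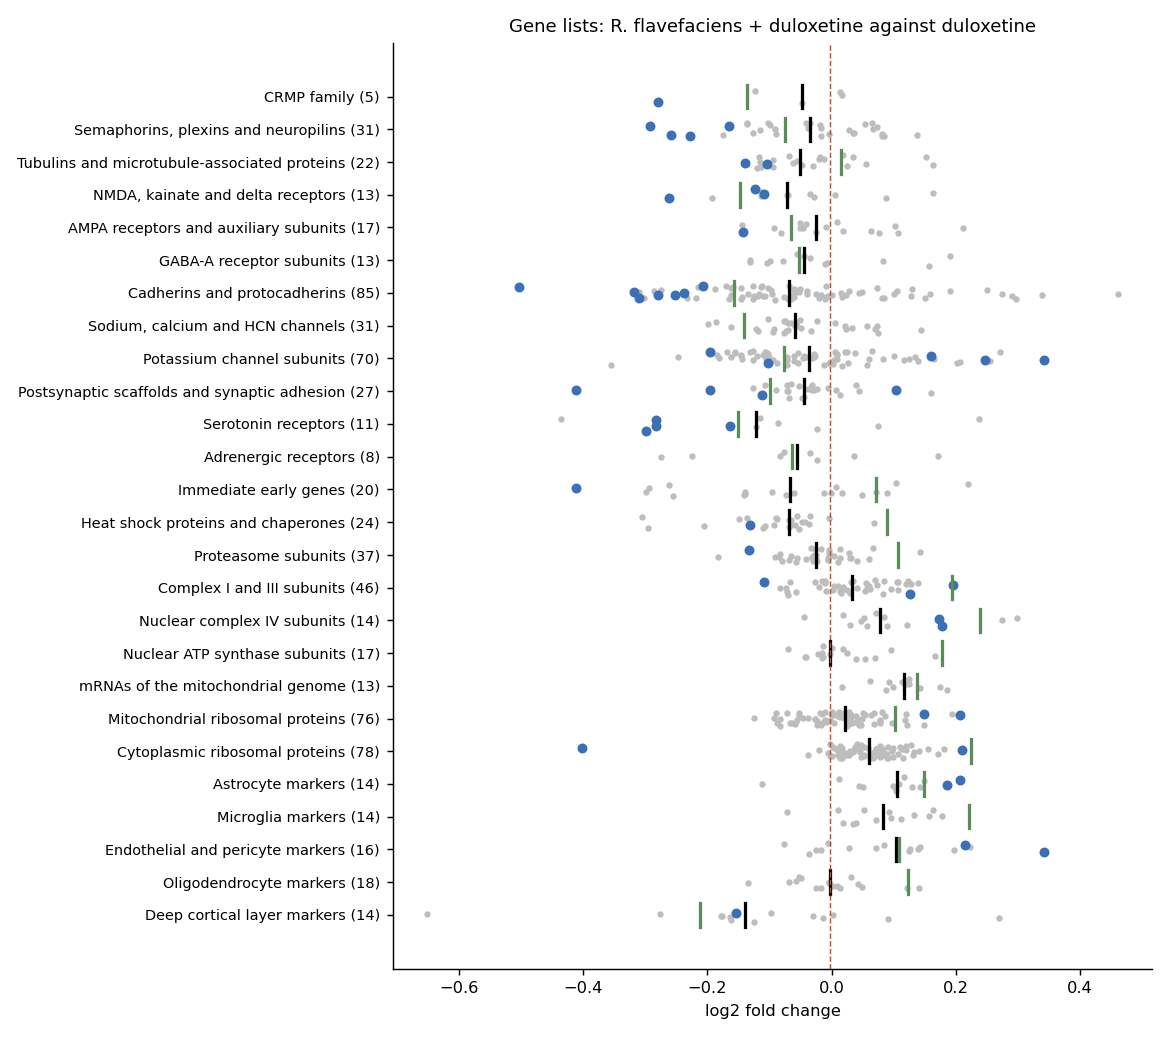
Log2 fold change between mice with both treatments and mice with duloxetine (x axis) of the members of 26 gene lists, with the number tested in brackets. Blue points have an unadjusted p-value under 0.05, black bars are list medians, green bars are medians of the same lists for *R. flavefaciens* against control, and the dashed line is the median of all genes. Black bars lie between -0.14 and 0.12.

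Lists of mitochondrial and ribosomal genes were compared next, and limma called 0 of their members. Of 46 subunits of respiratory complexes I and III, *Uqcrb* (0.19) and *Ndufb2* (0.13) were higher and *Ndufs1* (-0.11) lower at an unadjusted p-value under 0.05, and the median was 0.03. *Uqcrb*, a complex III subunit, was at 443 to 546 with duloxetine and 534 to 594 with both treatments, and of the duloxetine mice only 6_2 reached into the other group. Of 14 nuclear subunits of complex IV, *Cox8a* (0.18) and *Cox6c* (0.17) were higher at that level, and 13 of the 14 had a positive log2 fold change. The median was 0.08 (0.063 without mouse 12_2). In the scores of this list mice 10_2 and 12_2 stood highest, both at 0.17. The other mice with both treatments ran from -0.12 to 0.03, beside -0.14 to 0.05 with duloxetine. Of all genes 3.02% were higher and 2.88% lower at an unadjusted p-value under 0.05, and 48.8% had a positive log2 fold change. The 17 nuclear subunits of ATP synthase had 0 genes at that level and a median of -0.0024, which was positive with quantile normalization, with scaling to the 75th percentile and in the count models. Without mouse 12_2 this median was also positive, at 0.0040.

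All 13 mRNAs of the mitochondrial genome had a positive log2 fold change, with a median of 0.12, and 0 had an unadjusted p-value under 0.05. The median was 0.059 without mouse 12_2, the highest of the 12 in the score of this list, and 0.025 with quantile normalization. They are cut from long shared precursor transcripts and are not independent of each other. The most abundant, *mt-Co1*, a catalytic subunit of complex IV, ranged from 148385 to 200369 with duloxetine, and its log2 fold change was 0.09 with overlapping groups. Of 78 cytoplasmic ribosomal protein genes 71 had a positive log2 fold change, beside 48.8% of all genes, and the median was 0.06 (0.020 without mouse 12_2), with *Rpl39* higher (0.21) and *Rps4l* lower (-0.40) at an unadjusted p-value under 0.05, a level reached upward by 3.02% and downward by 2.88% of all genes. The 76 mitochondrial ribosomal proteins had a median of 0.02, with *Mrpl33* (0.21) and *Mrpl48* (0.15) higher at that level, and the median turned to -0.0058 once the trend with transcript length was removed.

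Transcript length moved with these lists. Across the 14958 genes with an annotated length, the log2 fold change had a Spearman correlation of -0.120 with length, given as a description. The 2992 shortest genes (median length 661 bases) had a median log2 fold change of 0.01, and the 2992 longest (median 3820 bases) of -0.03. Between *R. flavefaciens* and control the correlation was -0.301. Apart from the fit with this trend removed, its part in the medians was not tested.

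**Figure D4:**
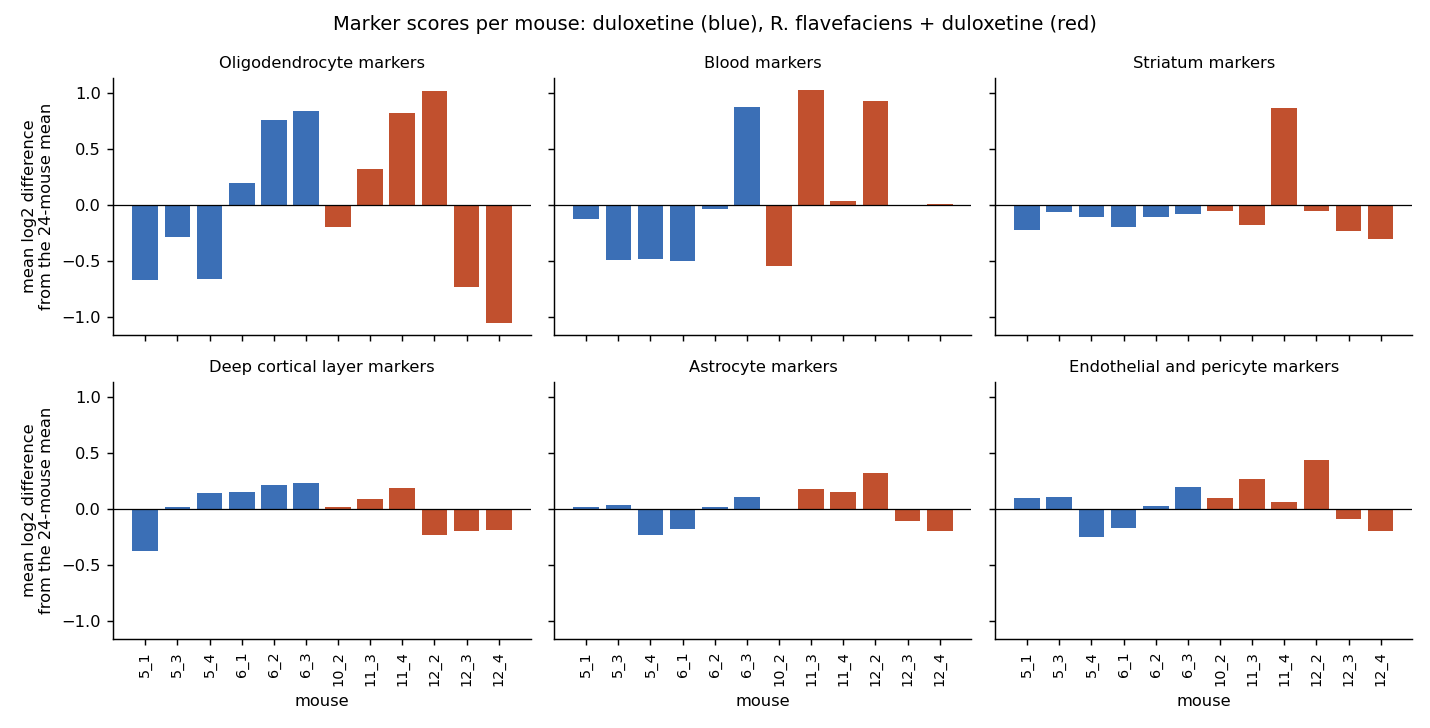
Marker scores of the 12 mice (x axis), which are the mean log2 difference of the listed genes from their mean over 24 mice (y axis). Oligodendrocyte scores run from -0.67 to 0.84 with duloxetine and from -1.05 to 1.02 with both treatments, and mouse 11_4 stands alone in the striatum score at 0.86.

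The mice differed among themselves more than the groups did in cell type markers. The first principal component of the 12 mice carried 23.9% of the variance, and across these mice it had a Pearson correlation of 0.943 and a Spearman correlation of 0.909 with the score of 18 oligodendrocyte markers, genes of which it is itself partly made. In bulk tissue fewer cells of a type and less RNA per cell cannot be told apart. The summed level of the 18 genes was 19111, 24818, 19854, 36137, 54677 and 55285 normalized counts in the duloxetine mice 5_1, 5_3, 5_4, 6_1, 6_2 and 6_3. It was 26595, 39060, 54915, 62580.4, 18463 and 14669 in the mice with both treatments, 10_2, 11_3, 11_4, 12_2, 12_3 and 12_4. Both groups thus held mice at either end. The median log2 fold change of the list was -0.0021, a sign that changed in several alternatives.

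With the oligodendrocyte score as a covariate limma again called 0 genes, and *Dpysl2* kept a log2 fold change of -0.28 with an adjusted p-value of 0.0815. Striatal markers singled out mouse 11_4, in which the 12 genes summed to 10620.4 normalized counts against 6368 to 7334 in the other 11 mice. *Penk*, a neuropeptide precursor abundant in the striatum, was at 550.1 in that mouse and at 198 to 292 in the other mice with both treatments. Without mice 9_3 and 11_4 limma called 0 genes, and *Dpysl2* was at -0.29 with an adjusted p-value of 0.101.

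Astrocyte, microglia and vascular marker lists had positive medians, with score differences within the spread between mice. Mouse 12_2 had the highest of the 12 scores in all 3 lists (0.32, 0.36 and 0.44), and without it the medians were 0.056, 0.020 and 0.026. Of 14 astrocyte markers 13 had a positive log2 fold change (median 0.11), and *S100b*, a calcium-binding protein, and *Slc4a4*, a bicarbonate transporter, were higher by 0.21 and 0.18 at an unadjusted p-value under 0.05, beside 48.8% of all genes with a positive value and 3.02% higher at that level. Of 14 microglia markers 13 were positive (median 0.08) and 0 were at that level. Among 16 endothelial and pericyte markers 11 were positive and 5 negative and the median was 0.10, with *Rgs5*, a pericyte gene, at 0.21 and *Kcnj8*, a pericyte potassium channel, at 0.34. The 14 markers of deep cortical layers had a median of -0.14, with *Tbr1* at -0.15. Mouse 5_1 had the lowest deep-layer score of the 12, -0.37, and mice 12_2, 12_3 and 12_4 followed at -0.23, -0.19 and -0.18. The part of these differences in the lists above was not tested.

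The same bacterium was also compared without the drug. Between *R. flavefaciens* and control, whose mice entered the comparison above only through the shared estimate of the spread, limma gave 2939 unadjusted p-values under 0.05 (19.6%) and called 4 genes (0.0267%), *Olfr729*, *Zfp318*, *Cox8a* and *Znrf3*, each at an adjusted p-value of 0.0261. Without the drug they differed by 1.33, -0.29, 0.36 and -0.31 in that order, and with it, in the comparison above, by 1.03, -0.04, 0.18 and 0.06. *Zfp318* encodes a zinc finger protein. DESeq2 called 488 genes and limma with a random block for the first label number 221. The limma count was 0 without mouse 1_1, 2_2, 2_3 or 9_3 and 616, 427 and 239 without mouse 9_2, 8_3 and 9_1. Across the 14974 genes the log2 fold changes of both comparisons had a Pearson correlation of 0.145 and a Spearman correlation of 0.208, given as a description over genes that are not independent.

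Of the 883 genes here, 561 (63.5%) had the same sign there, beside 58.4% of all genes. The lists shared 160 genes, which is 18.1% of the 883 and 5.44% of the 2939, beside 19.6% and 5.9% of all genes. The overlap was thus no larger than these shares. Of the 160 genes 23 had opposite signs, among them *Ccng2* and *Hagh*, which are described below. The other 137 had the same sign, 47 higher and 90 lower, where 58.4% of all genes had the same sign. Ordered by the larger of the p-values of both comparisons, the first 6 were *Olfr729*, *mt-Te* (0.38 here and 0.46 there), *Pcdh19* (-0.24 and -0.27), *Dync1h1* (-0.23 and -0.27), the heavy chain of the main cytoplasmic dynein, *Bmp3* (-0.22 and -0.22), a secreted factor of the TGF-beta family, and *Tmed9* (0.15 and 0.14), a cargo receptor of the early secretory pathway. Of the other genes described above, the higher genes *Sat1*, *Uqcrb*, *Cox8a*, *Cox6c*, *Rpl39*, *S100b* and *Nlgn3* were also shared with the same sign. So were the lower genes *Dpysl2* (-0.28 and -0.14), *Dync2h1*, *Rnf150*, *Sema3c*, *Sema3e*, *Nrp1*, *Grin1*, *Grin2b*, *Grid1*, *Nrxn3*, *Pcdh17*, *Pcdha11*, *Pcdhb16* and *Tbr1*. *Dync2h1* was at 805 to 887 with duloxetine, and its mean was 857 in controls and 680.2 with *R. flavefaciens*.

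The interaction asks whether the step differed between drugged and undrugged mice. limma called 0 genes, the smallest adjusted p-value was 0.639, and unadjusted p-values under 0.05 numbered 1128 (7.53%). The smallest belonged to *Znrf3*, a ubiquitin ligase that removes Wnt receptors, which differed by 0.06 here and by -0.31 between *R. flavefaciens* and control. *Ccng2*, an unconventional cyclin, differed by -0.14 and 0.14, *Hspe1*, the mitochondrial co-chaperone, by -0.06 and 0.27, and *Hagh*, a glyoxalase, by -0.15 and 0.17. By their medians 13 of the 44 gene lists were positive there and negative here, and 1 list, upper-layer markers, was the reverse, although its median here was -0.017 without mouse 6_2. The 13 included heat shock proteins and chaperones (0.09 there and -0.07 here, with 23 of 24 members negative here, while 48.8% of all genes were positive), proteasome subunits (0.11 and -0.03), immediate early genes (0.07 and -0.07), choroid plexus and meninges markers (0.16 and -0.19), interferon response and MHC class I genes (0.22 and -0.01) and ATP synthase subunits (0.18 and -0.0024). Of these 6, the medians here of the immediate early, interferon and ATP synthase lists changed sign in some alternatives. That of the proteasome subunits was -0.0075 without mouse 12_2. In the scores of the chaperone list mice 10_2 and 11_3 were the lowest of the 12, both at -0.26. The other mice with both treatments ran from -0.11 to 0.06, beside -0.13 to 0.05 with duloxetine. Whether the lists differed between the comparisons was not tested.

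**Figure D5:**
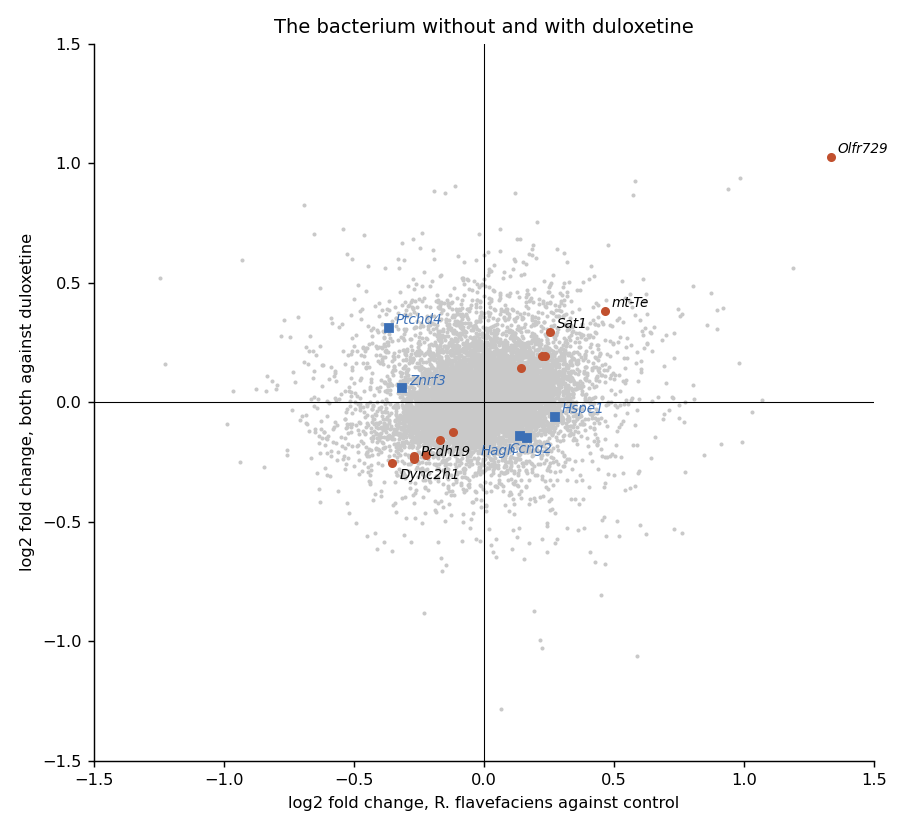
Log2 fold changes of 14974 genes for *R. flavefaciens* against control (x axis) and for both treatments against duloxetine (y axis). Red points are the 12 genes of the same sign with the smallest p-values in both, blue squares the 5 with the smallest interaction p-value, and 1 gene lies outside the axes. *Olfr729* stands apart at 1.33 and 1.03.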

How the data were processed

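The authors aligned the reads with TopHat2 2.1.0 and Bowtie2 2.2.6 and normalized gene counts with DESeq2 1.18.1, per the labels' processing notes. The counting program, its use of strand and the filter on low genes are not given in the sources used here. The notes name mm9 and the methods GRCm38, and positions in the deposited table equal those of GENCODE vM21 (GRCm38) for 14285 genes. The deposited values are a signal, counts divided by a factor per mouse. The step of each column gave back whole reads for at least 99.97% of values (tolerance 0.0051).

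Columns were mapped to mice by their labels. The main test was limma 3.58.1 on log2(value + 1) with trend, 4 groups of 6 mice in 1 fit, a mean of at least 10, and Benjamini-Hochberg adjustment with a threshold of 0.05. Alternatives were pseudocount, filter, scaling, transcript length, a random block for the first number of the mouse labels, DESeq2 1.42.0 and edgeR 4.0.16 on recovered reads, and each mouse left out, and 2 were added after the data were seen. R 4.3.3, scipy 1.17.1 and simulated data for testing the fits were used. Named genes had a mean of at least 50 over the 12 mice and were the 12 per direction with the smallest p-value, the 5 per direction with the largest fold change without overlap, the smallest p-value and the most abundant member of each of 44 gene lists, *Dpysl2*, *Adrb1*, and genes called by DESeq2 or edgeR. Other members with an unadjusted p-value under 0.05 and the genes of the comparison without the drug were named after their values were seen. Members and lists were chosen with earlier results of these data known. Principal components used centred log2 values. Sequences are not shown, since no result turned on one. Some genes that the rule names are not reported here.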

Additional observations from a re-analysis of the deposited data

Results flagged for a closer look

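The check took 152 groups of 6 mice, from list scores and from genes named for reasons other than membership of a list. Genes named only as list members, such as *Penk*, were not checked. In 11 groups 1 mouse stood far from the other 5 (gap over range above Dixon's critical value). Chance gives about 1 in 20. Values are normalized counts for genes and mean log2 differences from the 24-mouse mean for scores. In the duloxetine group mouse 5_1 had 428.74 for *Smpd4* (the others 589.58 to 683.9), mouse 6_2 had 442.12 for *Sat1* (343.38 to 379.96) and mouse 6_1 had 1928.3 for *Plcl2* (1753.38 to 1811.31). In the group with both treatments mouse 12_3 had 67.75 for *Gm14204* (79.47 to 86.18) and mouse 12_2 had 1062.18 for *Rnf150* (1279.78 to 1360.15). Among scores with duloxetine, mouse 5_1 stood apart for *Bdnf*, its receptors and CREB targets at 0.176 (-0.067 to 0.014) and for deep cortical layer markers at -0.369 (0.022 to 0.237), mouse 6_2 for adrenergic receptors at -0.142 (-0.029 to 0.035), and mouse 6_3 for blood markers at 0.875 (-0.493 to -0.036). With both treatments mouse 10_2 stood apart for complex I and III subunits at 0.108 (-0.044 to -0.00012) and mouse 11_4 for striatum markers at 0.863 (-0.300 to -0.047).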

How the results depend on the processing

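The count of DEGs between both treatments and duloxetine was 0 in limma under pseudocount, filter, scaling, length and block settings and in edgeR, and 1 in DESeq2 with 4 groups and 1 with the 12 mice, and leaving out each mouse gave 0 to 2. Genes without overlap numbered 38 to 121 when a mouse was left out and 72 without mice 9_3 and 11_4 together, where fewer mice alone raise the count. The 883 unadjusted p-values under 0.05 became 625 to 1318. *R. flavefaciens* against control gave 221 DEGs with the random block, 488 in DESeq2, 269 with the oligodendrocyte score as covariate, 0 without mice 9_3 and 11_4, and 0 to 616 with a mouse left out (616 without 9_2, 427 without 8_3, 239 without 9_1, and 0 without 1_1, 2_2, 2_3 or 9_3). The cause was not tested. The oligodendrocyte gene *Fa2h* (log2 fold change 0.14) was at -0.067 without mice 9_3 and 11_4 and at -0.078 to 0.38 with a mouse left out. Of the 108 genes refitted under the alternatives no other changed sign, and other genes named in the text were not followed. The medians of dopamine receptors moved to -0.34 without mouse 11_4, and those of striatum markers to -0.02. The interaction and the comparison without the drug have no value from fits of the 12 mice. Mice with the same first label number had a consensus correlation of -0.045. No paired analysis was possible because the labels give the groups no shared replicate numbers. Depth, 12811413 reads or more per mouse, limits mainly genes near the minimum mean of 10, and intervals cover the spread between mice of 1 cohort.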

Other observations

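Of the 44 lists, blood markers and choroid plexus and meninges markers had the medians farthest from 0, and these ran from 0.22 (without mouse 11_3) to 0.65 (without 6_3) and from -0.29 (without 6_1) to -0.03 (without 5_3) over the alternatives. The 17 inhibitory neuron markers had a median log2 fold change of 0.07, and *Npy*, a neuropeptide of interneurons, was at 589 to 826 normalized counts with duloxetine and 681 to 1051 with both treatments and differed by 0.20 on the log2 scale at an adjusted p-value of 0.818 in limma. Among 19 clock genes *Per2*, a repressor of the circadian loop, was at 766 to 1065 and 486 to 956, a log2 fold change of -0.30, and mouse 10_2 was the lowest. It differed by 0.13 between *R. flavefaciens* and control. Of 37 proteasome subunits *Psmc3*, an ATPase of the regulatory particle, was at 1708 to 1894 and 1499 to 1712, a log2 fold change of -0.13. The list's median was -0.03 (-0.0075 without mouse 12_2). Among 24 chaperones *Dnajb4* differed by -0.13, and among 16 ERK feedback genes the transcription factor *Etv5* by -0.18. Of 23 genes of cholesterol synthesis and uptake *Ebp*, a sterol isomerase, was at -0.18 and *Insig1*, which retains the sterol sensor in the endoplasmic reticulum, at 0.11. limma gave these genes adjusted p-values of 0.816 to 0.818.

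Of 22 interferon response and MHC class I genes and 16 corticosteroid receptors and targets, 0 had an unadjusted p-value under 0.05, with medians of -0.01 and 0.05. Without mouse 12_2 these medians were -0.035 and 0.014. The 3 dopamine receptors had a median of 0.0063 and the 7 genes of monoamine breakdown and transport of -0.07, and neither list had a gene at that level. The 6 blood markers had a median of 0.41, and the hemoglobin gene *Hba-a2* was at 31.6 to 101 and 43.1 to 117, with mice 6_3, 11_3 and 12_2 above 100. Of 31 synaptic vesicle and SNARE genes *Unc13b* (0.16) was higher and *Syn1* (-0.14) lower at an unadjusted p-value under 0.05, a level reached upward by 3.02% and downward by 2.88% of all genes, and of 19 integrated stress response genes *Mthfd1l* and *Eif4ebp1* (-0.31) were lower. The 17 kinases and partners of CRMP proteins and the 11 choroid plexus and meninges markers had 0 genes at that level, with medians of -0.03 and -0.19. *Cux2* (0.09) was the only one of 10 upper-layer markers and *Tbr1* of 9 excitatory neuron markers, with list medians of 0.03 and -0.08.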
